A study of Mus musculus with 12 samples.

Results

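The genes described are 6 that let a cell sense acid outside its membrane: the channels Asic1, Asic3 and Tmem206 (also called Pacc1) and the receptors Gpr4, Gpr65 and Gpr132. They were taken by name, not by any measured value, from the 21959 genes listed for each library, and all 6 were found. RNA came from C8-D1A, a cloned line of mouse cerebellar astrocytes, in 12 libraries. Controls were kept at 37 °C under 5% CO2. The other groups were held under 15% CO2, given 20 mM lactic acid, or grown in medium with its NaHCO3 lowered to 0.2 g/L ("low NaHCO3"). Each group has 3 libraries collected at 24 h. The sources used here give neither the pH reached nor the NaHCO3 of the control medium, so groups were not matched by acidity. Nor do they say whether libraries are separate cultures, and p-values then measure only the spread between these libraries. As a model of astrocytes the line is limited. Outside control 1, the glutamate transporters Slc1a2 and Slc1a3 and the water channel Aqp4 lay under 1 TPM in all 11 libraries. So did Gja1 and the enzymes Aldh1l1 and Aldoc, and Gfap lay under 1 TPM in 9. Other astrocyte markers, S100b, Sox9 and Fabp7, lay above 1 TPM in all 11, with medians of 38.7, 38.1 and 8.87 TPM. TPM, the unit of every level, is a share of the library's transcripts, scaled by transcript length.

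Protons reach these proteins from outside the cell. Acid-sensing ion channels are trimers that open to sodium when extracellular pH falls. The Asic1 subunit is best known from neurons, where some of its channels also pass calcium, and Asic3 from sensory neurons that respond to tissue acid. Tmem206 encodes the pore of the proton-activated chloride channel, which is found in many cell types. Gpr4 and Gpr65 are receptors that gain protons on extracellular histidines and couple mainly to Gs and so to cyclic AMP. Gpr4 is typical of endothelium, and Gpr65 of leukocytes. Gpr132 is a weaker proton sensor of the same family, found in leukocytes.

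The promoters of the channel genes are shown because these genes carry the differences between groups. The sequences are from RefSeq on GRCm38.p6, on the plus strand. Those of Asic1 and Tmem206 end 1 base before the annotated start. Capitals mark a match to the core of the cyclic AMP response element. The Asic1 stretch is chr15:99691974-99692223. The Asic3 stretch is chr5:24413201-24413391, from which the 59 of 250 bases next to the start were left out because the annotation places an exon there. The Tmem206 stretch is chr1:191325652-191325901.
Asic1: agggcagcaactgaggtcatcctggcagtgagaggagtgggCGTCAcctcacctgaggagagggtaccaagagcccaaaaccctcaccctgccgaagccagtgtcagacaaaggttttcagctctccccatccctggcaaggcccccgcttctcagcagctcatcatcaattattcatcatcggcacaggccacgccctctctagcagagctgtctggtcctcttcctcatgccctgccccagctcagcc
Asic3: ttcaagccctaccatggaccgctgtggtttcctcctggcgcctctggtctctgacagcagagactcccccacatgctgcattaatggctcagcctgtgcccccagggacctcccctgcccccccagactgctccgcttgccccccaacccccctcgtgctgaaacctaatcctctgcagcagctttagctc
Tmem206: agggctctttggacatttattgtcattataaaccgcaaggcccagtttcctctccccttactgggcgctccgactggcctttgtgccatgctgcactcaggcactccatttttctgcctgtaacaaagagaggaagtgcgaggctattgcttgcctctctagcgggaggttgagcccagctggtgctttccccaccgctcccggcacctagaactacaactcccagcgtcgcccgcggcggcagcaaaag
In the 250 bases before the start, both strands were searched for the cyclic AMP response core TGACG, the E-box CACGTG, the GC box GGGCGG and the NR4A site AAAGGTCA, none of which contains another. For Asic3 the 59 bases left out were not searched. The Asic1 window held 1 match, to TGACG on the minus strand 209 bases before the start, a motif found in 17.9% of 27025 mouse promoters of that length. The Asic3 and Tmem206 windows held no match to these letters. Among the receptors, which are described below, the Gpr4 window held 2 GC boxes (found in 32.9% of promoters), the Gpr132 window held 1 cyclic AMP core, and the Gpr65 window held none of the motifs. Base composition, counted over all 250 bases and so for Asic3 with the 59 left out above, differed among the 6 windows. The Tmem206 window held 12 CpG dinucleotides and the Asic1 and Asic3 windows 5 each, against a median of 6, while the Gpr65 window was 36.8% GC against a median of 52%.

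The library of control 1 stood apart and bears on every comparison with control. Its values across genes correlated with those of the other libraries at a Spearman rho of 0.859 to 0.884, where the other 11 correlated among themselves at 0.958 to 0.980. It listed 17319 genes above 0 TPM, and the others 14531 to 15419. Of 10 neuronal markers, 10 were higher there than in any other library, with a summed level of 2537 TPM against 0.413 to 1.42 TPM elsewhere. The corresponding counts were 9 of 10 for microglia and macrophages (245 against 62.8 to 95.3 TPM, with C1qa, C1qb and P2ry12 at 0 elsewhere), 10 of 10 for endothelial and mural cells (177 against 16.1 to 20.6 TPM), 9 of 10 for the oligodendrocyte lineage (1056 against 114 to 223 TPM), 9 of 10 for mature astrocytes (1244 against 71.5 to 114 TPM) and 4 of 10 for lymphocytes and neutrophils (22.4 against 3.36 to 6.53 TPM). The part of these cells in the levels of control 1 was not tested. The changes of the tested members against control are therefore given with and without this library. Some other results are given for all 12 libraries alone or without control 1 alone.

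Acid sensors beyond the 6 genes showed how far this library reached. A list of 24 other proton-gated or acid-sensitive receptors and channels had 19 members under 1 TPM in all of the other 11 libraries, and 12 of its members lay at or above 1 TPM in control 1 and under it everywhere else. Asic2, the usual partner of Asic1 in neuronal channels, was at 25.2 TPM in control 1 and at most 0.0925 TPM elsewhere. The acid-sensitive potassium channel Kcnk9 was at 22.05 TPM there and listed at 0 in the other 11. Outside control 1 only Trpm7, Kcnk2, P2rx4 and Pkd2l1 of the 24 lay at or above 1 TPM in all 11 libraries, and they were chosen for naming on that ground after their values were seen.

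**Figure D1:**
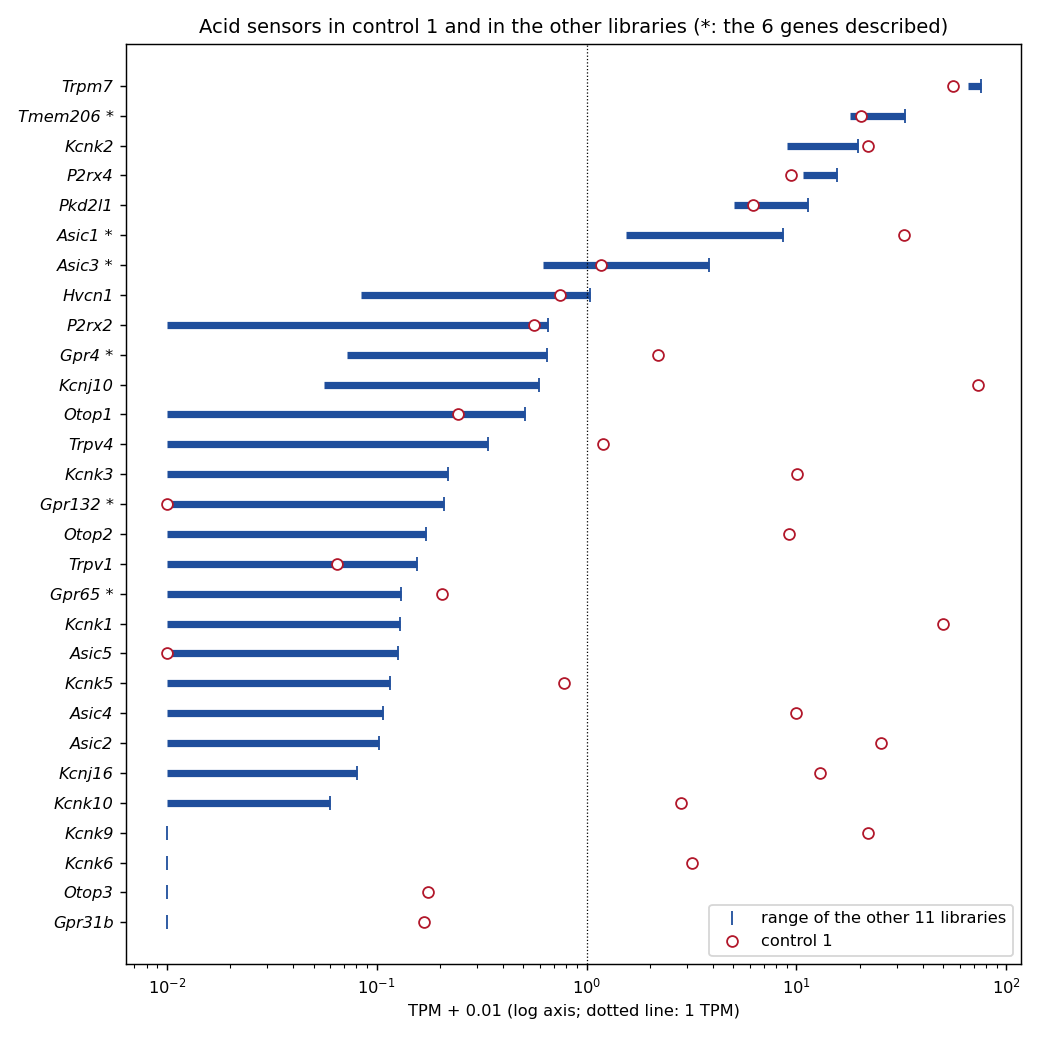
Level of acid sensors as TPM + 0.01 on a log axis, with the range of 11 libraries as a bar and control 1 as an open circle; asterisks mark the 6 genes described and the dotted line marks 1 TPM. Asic1, Gpr4 and Gpr65 lie above the bar in control 1, at 32.5, 2.17 and 0.195 TPM, and Tmem206 and Asic3 lie within it.

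Outside control 1 the 6 genes fell into 2 sets by level. Gpr4, Gpr65 and Gpr132 lay under 1 TPM in all 11 libraries, Asic3 lay under 1 TPM in 3 of them (controls 2 and 3 and lactic acid 3), and Asic1 and Tmem206 in none. By mean TPM over these 11 libraries Tmem206 was the highest of the 6, above 74.0% of all genes. It was followed by Asic1 (54.4%), Asic3 (48.7%), Gpr4 (39.6%), Gpr132 (32.6%) and Gpr65 (22.3%). Only Asic1, Asic3 and Tmem206 reached 1 TPM in every library of some group and so entered the fit across all genes. Asic3 did so through 15% CO2 and low NaHCO3, the groups where it was highest.

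**Figure D2:**
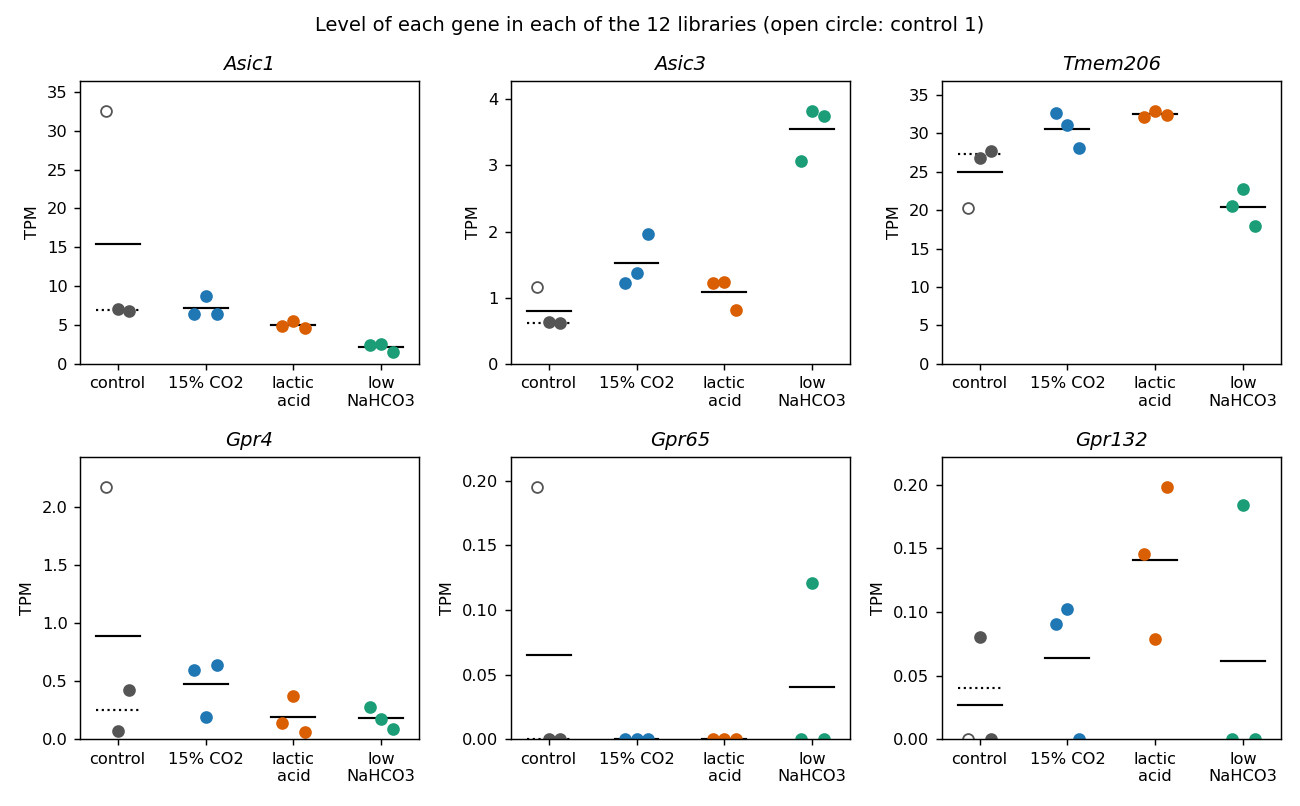
TPM of each gene in each of the 12 libraries by group, with the group mean as a solid line, controls 2 and 3 alone as a dotted line, and control 1 as an open circle; the vertical axes differ. Low NaHCO3 holds the lowest Asic1 values (1.53 to 2.57 TPM) and the highest Asic3 values (3.07 to 3.82 TPM), and the lower panels lie under 1 TPM apart from Gpr4 in control 1.

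Asic1 was lowest in low NaHCO3. Its level was 32.5, 7.04 and 6.79 TPM in controls 1, 2 and 3, and 6.42, 8.66 and 6.38 TPM in the 3 libraries under 15% CO2. With lactic acid it was 4.81, 5.45 and 4.56 TPM. In low NaHCO3 it was 2.41, 2.57 and 1.53 TPM. Every low NaHCO3 library lay under every library of the other groups, every lactic acid library lay under every control, and 15% CO2 overlapped the controls. Control 1 alone moved the control mean from 6.91 ± 0.183 TPM (SD, n = 2) to 15.4 ± 14.8 TPM (SD, n = 3). The means were 7.15 ± 1.31 TPM under 15% CO2, 4.94 ± 0.456 TPM with lactic acid and 2.17 ± 0.557 TPM in low NaHCO3 (SD, n = 3 each). Set against controls 2 and 3, the low NaHCO3 mean was 3.19-fold lower. In bulk RNA, fewer cells with a transcript and less of it per cell cannot be told apart.

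The fall of Asic1 in low NaHCO3 passed the limma test on log2(TPM + 1), a scale that understates changes of low genes. The log2 change was -2.03 ± 0.45 (SE, adjusted p = 0.0029) over 12 libraries and -1.34 ± 0.17 (adjusted p = 3.89e-05) without control 1. In the latter fit 4.63% of genes had a lower change. Under lactic acid the log2 change was -1.11 ± 0.45 (limma adjusted p = 0.167) and, without control 1, -0.42 ± 0.17 (adjusted p = 0.107), with a 95% interval of -0.79 to -0.05 before adjustment, so it did not pass. Under 15% CO2 the log2 change turned from -0.66 ± 0.45 (limma adjusted p = 0.488) to 0.03 ± 0.17 (adjusted p = 0.927) when control 1 was left out, and the 95% interval of the latter was -0.34 to 0.40.

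Asic3 was highest in low NaHCO3, opposite to Asic1. Its level was 1.17, 0.631 and 0.610 TPM in controls 1, 2 and 3, and 1.22, 1.38 and 1.96 TPM under 15% CO2. With lactic acid it was 1.22, 1.24 and 0.814 TPM. In low NaHCO3 it was 3.07, 3.82 and 3.74 TPM. The low NaHCO3 libraries lay above all others and the 15% CO2 libraries above all controls, while lactic acid 3 lay under control 1. The means were 0.803 ± 0.315 TPM in control (SD, n = 3; 0.621 ± 0.0148 TPM without control 1, n = 2), 1.52 ± 0.390 TPM under 15% CO2, 1.09 ± 0.240 TPM with lactic acid and 3.54 ± 0.413 TPM in low NaHCO3 (SD, n = 3 each). The low NaHCO3 mean was 5.71-fold that of controls 2 and 3, and the means under 15% CO2 and lactic acid were 2.44-fold and 1.76-fold.

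The rise of Asic3 in low NaHCO3 was 1.34 ± 0.19 on the log2 scale (limma adjusted p = 0.000181) and 1.48 ± 0.16 without control 1 (adjusted p = 1.4e-05), higher than 98.1% of genes in the latter fit. Asic3 passed the filter of these fits only through 15% CO2 and low NaHCO3. Its low NaHCO3 call also held without a filter. Under 15% CO2 the change was 0.48 ± 0.19 (limma adjusted p = 0.259) and passed only without control 1, at 0.62 ± 0.16 (adjusted p = 0.0413). That call held in 4 of the 16 fits without control 1 at a pseudocount of 1. Under lactic acid the change was 0.22 ± 0.19 (limma adjusted p = 0.492) and 0.36 ± 0.16 without control 1 (adjusted p = 0.144), and passed in neither. The gene next to Asic3, Cdk5, lies 405 bases away on the opposite strand in the GRCm38 annotation, and the sources used here do not say whether counting used strand. Cdk5 was at 67.4 and 60.1 TPM in controls 2 and 3, 66.8, 82.4 and 61.6 TPM under 15% CO2, 61.1, 59.5 and 40.9 TPM with lactic acid, and 35.5, 34.8 and 39.9 TPM in low NaHCO3. Its part in the Asic3 values was not tested.

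Tmem206 moved within a narrow range. Its level was 20.3, 26.9 and 27.8 TPM in controls 1, 2 and 3, and 32.7, 31.0 and 28.1 TPM under 15% CO2. With lactic acid it was 32.1, 32.9 and 32.4 TPM. In low NaHCO3 it was 20.6, 22.7 and 17.9 TPM. Here control 1 was the lowest control and lay inside the low NaHCO3 range, whereas controls 2 and 3 lay above all low NaHCO3 libraries and under all libraries of the other treatments. The means were 24.97 ± 4.07 TPM in control (SD, n = 3; 27.3 ± 0.645 TPM without control 1, n = 2), 30.6 ± 2.30 TPM under 15% CO2, 32.5 ± 0.377 TPM with lactic acid and 20.4 ± 2.39 TPM in low NaHCO3 (SD, n = 3 each).

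The difference of Tmem206 between low NaHCO3 and control was -0.27 ± 0.13 on the log2 scale (limma adjusted p = 0.0853) and did not pass with all libraries. Without control 1 it was -0.41 ± 0.097 (limma adjusted p = 0.0034) and passed, with a low NaHCO3 mean 1.34-fold lower than that of controls 2 and 3. The median change of all genes in that fit was -0.18, and relative to it the Tmem206 change was -0.23. With 12 libraries, quantile normalization turned the difference to 0.084 (limma adjusted p = 0.763) and median-of-ratios scaling left -0.082 (adjusted p = 0.575). Without control 1 it passed under both, at -0.22 (limma adjusted p = 0.0369) and -0.23 (adjusted p = 0.0291). Lactic acid gave 0.38 ± 0.13 (limma adjusted p = 0.107) and 0.24 ± 0.097 without control 1 (adjusted p = 0.108). For 15% CO2 the values were 0.29 ± 0.13 (limma adjusted p = 0.289) and 0.16 ± 0.097 (adjusted p = 0.332).

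These calls stand against a large background. In low NaHCO3, 56.2% of 11996 genes passed with all libraries and 64.6% of 12023 without control 1. Of the 3 members tested, 2 passed in the former fit and 3 in the latter. By direction, 20.5% of all genes passed as higher and 35.8% as lower, and 23.1% and 41.5% without control 1. Under median-of-ratios scaling the latter split, 2780 higher and 4992 lower, became 4063 higher and 3892 lower. Without control 1 the low NaHCO3 libraries did not overlap the controls for 3 of 3 members, and for 82% of all genes. The same held for 3 of 3 members (56.5% of all genes) with lactic acid and for 2 of 3 (50.3%) under 15% CO2. For lactic acid 4.4% and 16.6% of genes passed with and without control 1, and 0 of 3 members in either limma fit; at an unadjusted p under 0.05 these were 2 of 3 and 3 of 3, beside 23.5% and 33.9% of all genes. For 15% CO2 1.41% and 7.62% of genes passed, and 0 and 1 of the 3 members; 2 members were at an unadjusted p under 0.05 with all libraries, beside 15.8% of all genes. The median change over all genes in low NaHCO3 was -0.19 and -0.18, and relative to it the changes without control 1 were -1.16 for Asic1 and 1.66 for Asic3.

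**Figure D3:**
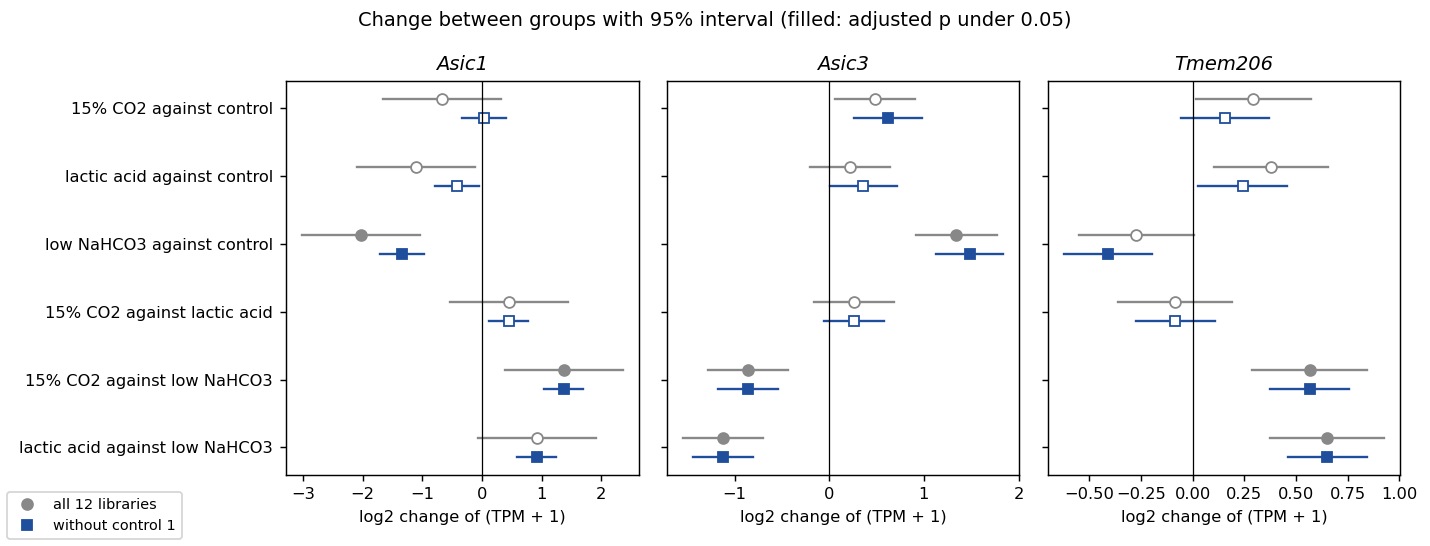
Log2 change of (TPM + 1) with its 95% interval for the 3 genes tested in each of 6 comparisons, with all 12 libraries (circles) and without control 1 (squares); filled symbols passed at an adjusted p under 0.05. Asic1 and Asic3 lie on opposite sides of 0 in low NaHCO3 against control, at -1.34 and 1.48 without control 1.

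Compared with each other, the treatments set low NaHCO3 apart. Asic1 was higher under 15% CO2 than in low NaHCO3 by 1.37 ± 0.45 (limma adjusted p = 0.0245), with an SE of 0.15 without control 1 (adjusted p = 1.08e-05). It was higher with lactic acid than in low NaHCO3 by 0.92 ± 0.45 (limma adjusted p = 0.110), which passed without control 1 (SE 0.15, adjusted p = 0.000242). These contrasts hold no control library, and control 1 enters them only through the shared spread. Asic3 was lower under 15% CO2 and with lactic acid than in low NaHCO3, by -0.86 ± 0.19 (limma adjusted p = 0.0033) and -1.12 ± 0.19 (adjusted p = 0.000696). Tmem206 was higher under both than in low NaHCO3, by 0.57 ± 0.13 (limma adjusted p = 0.0032) and 0.65 ± 0.13 (adjusted p = 0.0015). Of all genes, 52.7% passed for 15% CO2 and 50% for lactic acid against low NaHCO3, and 69.9% and 68.1% without control 1.

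Between 15% CO2 and lactic acid none of the 3 passed in limma. The log2 differences without control 1 were 0.45 for Asic1 (95% interval 0.12 to 0.78, limma adjusted p = 0.121), 0.26 for Asic3 (-0.06 to 0.58, adjusted p = 0.350) and -0.08 for Tmem206 (-0.28 to 0.11, adjusted p = 0.662). At an unadjusted p under 0.05 this was 1 of 3, Asic1, beside 20.2% of all genes, and 0 of 3 with all libraries, beside 8.49%. After adjustment, 0.333% of all genes passed with all libraries and 4.8% without control 1. The order of group means was thus, for Asic1 and without control 1, 15% CO2, control, lactic acid and low NaHCO3, where only the step from lactic acid to low NaHCO3 passed. For Asic3 it was low NaHCO3, 15% CO2, lactic acid and control, where only the first step passed. For Tmem206 it was lactic acid, 15% CO2, control and low NaHCO3, where only the last step passed.

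An exact permutation test of the level over the 4 groups, run on each of the 6 genes and unadjusted, gave p = 0.00266 for Asic1, 0.000844 for Asic3 and 0.00662 for Tmem206 with 12 libraries. With quantile normalization of the 12 the exact p of Tmem206 was 0.0596. Without control 1 the exact p was 0.000844 for each of the 3. For the receptors the exact p was 0.453 for Gpr4, 0.340 for Gpr132 and 1 for Gpr65, and without control 1 it was 0.296, 0.467 and 1.

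The ratio of Asic3 to Asic1, chosen after the values were seen and given without a test, joined both opposite changes. It was 0.0359 in control 1 and 0.0896 and 0.0900 in controls 2 and 3. Under 15% CO2 it was 0.190, 0.159 and 0.307, and with lactic acid 0.254, 0.227 and 0.178. In low NaHCO3 it was 1.28, 1.49 and 2.44. Asic1 was thus the more abundant of the pair in the 9 other libraries and Asic3 in the 3 low NaHCO3 libraries. The sum of both moved less, with 7.67 and 7.40 TPM in controls 2 and 3 and 5.48, 6.39 and 5.28 TPM in low NaHCO3, against 33.7 TPM in control 1.

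**Figure D4:**
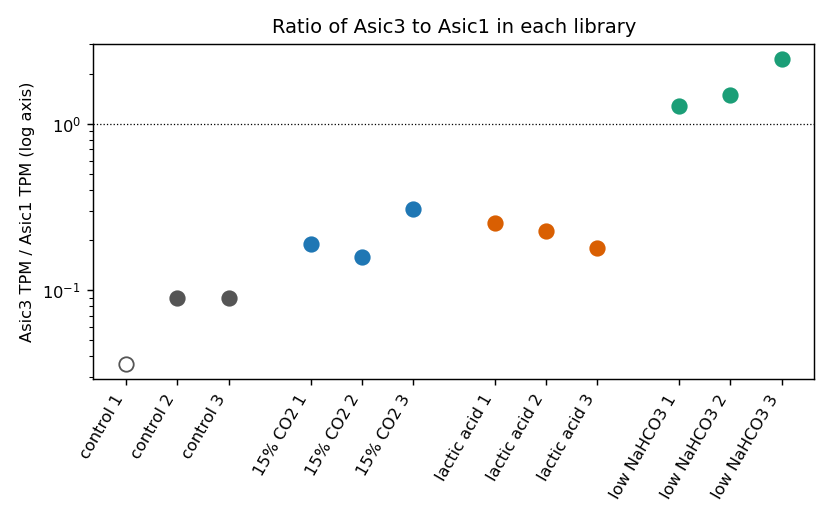
Ratio of Asic3 to Asic1 TPM in each of the 12 libraries on a log axis, with the dotted line at a ratio of 1 and control 1 as an open circle. The 3 low NaHCO3 libraries lie above the line, at 1.28 to 2.44, and the other 9 lie under it.

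The proton-sensing receptors were near 0. Gpr4 was at 2.17 TPM in control 1 and at 0.0758 and 0.428 TPM in controls 2 and 3. Under 15% CO2 it was 0.596, 0.193 and 0.640 TPM, with lactic acid 0.137, 0.371 and 0.0622 TPM, and in low NaHCO3 0.277, 0.174 and 0.0926 TPM. All groups overlapped, and control 1 was the only library above 1 TPM. Exact two-sided tests of Gpr4 in 15% CO2, lactic acid and low NaHCO3 against all 3 controls gave p = 0.9, 0.4 and 0.4, where 0.1 is the smallest p that 3 libraries against 3 allow. Its mean without control 1 was 0.252 ± 0.249 TPM (SD, n = 2) in control and 0.476 ± 0.246 TPM (SD, n = 3) under 15% CO2.

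Gpr65 was listed at 0 in 10 of the 11 libraries other than control 1. It was at 0.195 TPM in control 1 and 0.121 TPM in low NaHCO3 2. Gpr132 was listed at 0 in control 1, control 3, 15% CO2 3 and low NaHCO3 1 and 3, and at 0.0805 TPM in control 2. Its other values were 0.0904 and 0.102 TPM under 15% CO2 1 and 2, 0.145, 0.0788 and 0.198 TPM with lactic acid, and 0.184 TPM in low NaHCO3 2. Its lactic acid libraries overlapped the controls (exact two-sided p = 0.2). TPM keeps no read counts, so the depth is unknown, no limit can be put on a level listed at 0, and differences at these levels were not detectable.

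Of the 24 other acid sensors on the list 4 entered the fit. In low NaHCO3 1 of these rose and 1 fell with 12 libraries, or 2 and 1 without control 1, which is 50% and 75% of the 4 beside 56.2% and 64.6% of all genes. Pkd2l1, a channel of sour-sensing cells, changed by -0.48 ± 0.17 on the log2 scale (limma adjusted p = 0.0295). Without control 1 it changed by -0.64 ± 0.14, from 9.01 TPM in controls 2 and 3 to 5.42 TPM. With quantile normalization of 12 libraries its change was 0.44 (limma adjusted p = 0.434). By count, 0 of the 4 genes passed as lower with median-of-ratios scaling of 12 libraries or with quantile normalization without control 1. With median-of-ratios scaling without control 1, 1 passed as lower. P2rx4, an ATP-gated channel that protons inhibit, rose by 0.36 ± 0.11 (limma adjusted p = 0.0161). Without control 1 it rose by 0.28 ± 0.097, from 11.4 TPM in controls 2 and 3 to 14.04 TPM. The third call without control 1 was Kcnk2, an acid- and stretch-sensitive potassium channel, which rose by 0.82 (limma adjusted p = 0.000121), from 9.18 to 17.2 TPM. The list's median change in that fit was 0.16, beside -0.18 over all genes.

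Genes that carry the receptors' signal were taken from lists of G proteins, effectors, cyclic AMP response genes, desensitization genes and channel partners. Of 30 tested G proteins and effectors, 3 rose and 13 fell in low NaHCO3, and 5 and 15 without control 1, which is 53.3% and 66.7% of the list beside 56.2% and 64.6% of all genes. The list's median changes were -0.34 and -0.19, beside -0.19 and -0.18 over all genes. Without control 1, median-of-ratios scaling turned the split of 5 and 15 to 11 and 11, and quantile normalization gave 6 and 13. With 12 libraries median-of-ratios scaling gave 8 and 9, and quantile normalization 4 and 11. Plcb1, a phospholipase C that Gq activates, changed by -2.53 ± 0.60 (limma adjusted p = 0.0044), or -1.57 ± 0.15 without control 1, where it was at 60.1 TPM. Plcb4, of the same enzyme family, changed by -1.56 ± 0.35 (limma adjusted p = 0.0031) and -1.01 ± 0.11. The adenylyl cyclases Adcy5 and Adcy3, which make cyclic AMP, changed by -1.67 ± 0.61 (limma adjusted p = 0.0367) and -1.21 ± 0.25 (adjusted p = 0.002), and by -0.67 ± 0.10 and -0.86 ± 0.14 without control 1. These 4 genes, like Asic1, were higher in control 1 than in any other library.

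Of 19 tested genes that respond to cyclic AMP or break it down, 4 rose and 5 fell in low NaHCO3, and 6 and 8 without control 1, which is 47.4% and 73.7% beside 56.2% and 64.6% of all genes. The median change was -0.19 and -0.13, beside -0.19 and -0.18 over all genes. The split depended on the scaling: with 12 libraries quantile normalization gave 4 higher and 0 lower, with a median of 0.18, and without control 1 median-of-ratios scaling gave 6 and 5. Per1, a clock gene that cyclic AMP and glucocorticoids induce, rose by 2.59 ± 0.40 (limma adjusted p = 0.000299), or 3.22 ± 0.14 without control 1, from a mean of 11.5 TPM in controls 2 and 3 to 117 TPM. Dusp1, a phosphatase of MAP kinases, rose by 1.48 ± 0.15 (limma adjusted p = 1.73e-05). Without control 1 it rose by 1.65 ± 0.12, from 18.5 TPM in controls 2 and 3 to 60.4 TPM. The phosphodiesterase Pde10a, which breaks down cyclic nucleotides, changed by -1.41 ± 0.45 (limma adjusted p = 0.0205), or -0.69 ± 0.11 without control 1. Crem, a transcription factor of the cyclic AMP pathway, changed by -1.09 ± 0.20 (limma adjusted p = 0.00088), or -0.91 ± 0.17 without control 1. Pde10a and Crem were higher in control 1 than in any other library. With quantile normalization of 12 libraries the calls of Pde10a (adjusted p = 0.0972), Crem (adjusted p = 0.486) and, among the effectors, Adcy5 (adjusted p = 0.117) were lost.

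Among 13 tested genes for receptor desensitization and for partners of acid-sensing channels, 5 rose and 5 fell in low NaHCO3, and 6 and 5 without control 1. These are 76.9% and 84.6% of the list, beside 56.2% and 64.6% of all genes. The list's median change was 0.16 and 0.27, beside -0.19 and -0.18 over all genes. Both beta-arrestins, which uncouple active receptors, were lower. Arrb1 changed by -2.04 ± 0.56 (limma adjusted p = 0.0098), or -1.14 ± 0.14 without control 1, and Arrb2 by -1.20 ± 0.13 (adjusted p = 2.77e-05). Slc9a3r1, a scaffold of membrane proteins, changed by -1.19 ± 0.099 (limma adjusted p = 5e-06), and Rgs16, which speeds GTP hydrolysis by G proteins, rose by 1.21 ± 0.20 (adjusted p = 0.000408). Stom, whose product binds acid-sensing channels, rose by 0.61 in low NaHCO3 without control 1 (limma adjusted p = 1.97e-05) and was among the calls in the other treatments as well.

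In the other treatments fewer of these genes passed than in low NaHCO3. Under 15% CO2, 0 genes of the 4 lists passed in limma with 12 libraries, where 1 of 4 acid sensors, 3 of 30 effectors, 2 of 19 response genes and 2 of 13 desensitization genes and partners were at an unadjusted p under 0.05, beside 15.8% of all genes. After adjustment the share of all genes that passed was 1.41%, and 7.62% without control 1. Without control 1 the calls were Rapgef3 among effectors, Nr4a2 and Rgs2 among response genes and Grk3 and Stom among desensitization genes and partners, all higher. At an unadjusted p under 0.05 the counts of that fit were 1 of 4, 7 of 30, 11 of 19 and 3 of 13 in the same order of lists, beside 26.2% of all genes. With lactic acid and 12 libraries the calls were Rock2, Dusp1, Pde8a and Stom, all higher. Without control 1 the lactic acid counts were 1 of 4 acid sensors (P2rx4), 4 of 30 effectors (3 higher, with Prkar2a lower), 6 of 19 response genes and 3 of 13 desensitization genes and partners, the last 2 groups all higher. These are 25%, 13.3%, 31.6% and 23.1% of the lists, beside 16.6% of all genes. Dusp1 rose with lactic acid by 0.81 ± 0.15 (limma adjusted p = 0.0193) over 12 libraries. Without control 1 it rose by 0.97 ± 0.12, from 18.5 TPM in controls 2 and 3 to 37.3 TPM. Per1 rose with lactic acid by 0.76 ± 0.14 without control 1 (limma adjusted p = 0.0073), and by 0.13 ± 0.40 (adjusted p = 0.859) with it, which did not pass.

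**Figure D5:**
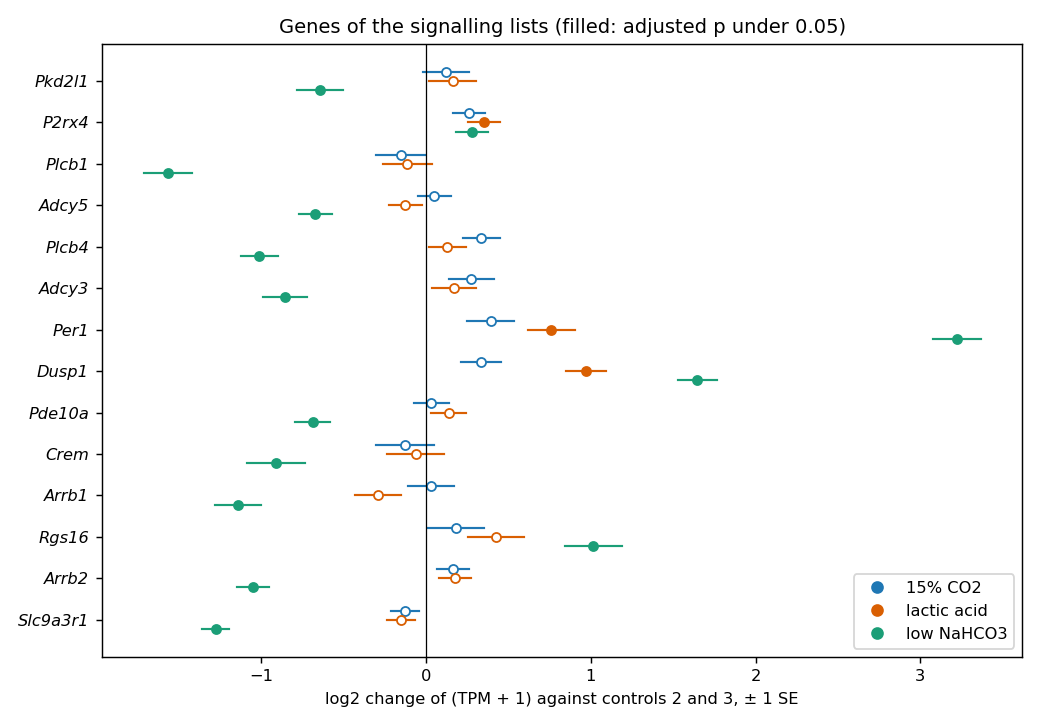
Log2 change of (TPM + 1) against controls 2 and 3, ± 1 SE, of 14 genes of the pathway lists in 15% CO2, lactic acid and low NaHCO3; filled symbols passed at an adjusted p under 0.05. All 14 passed in low NaHCO3, from Per1 at 3.22 to Plcb1 at -1.57, while with lactic acid Per1, Dusp1 and P2rx4 passed.

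The genes whose levels followed each channel gene most closely were found by Pearson correlation of log2(TPM + 1) over the 11 libraries other than control 1, among 11546 genes without a predicted or clone-based name. These libraries share the group structure, so the values are a description. For Asic1 they were Cc2d1a (r = 0.991), Snx19 (r = 0.990) and Zc3h8 (r = 0.989). Snx19 had a mean of 31.8 TPM in controls 2 and 3, 30.5 TPM under 15% CO2, 24.8 TPM with lactic acid and 15.9 TPM in low NaHCO3. For Asic3 they were Mfsd4a (r = 0.973), Zfp874b (r = 0.970) and Jph2 (r = 0.966), and Jph2, a junctional membrane protein of muscle, went from 1.99 TPM in controls 2 and 3 to 8.29 TPM in low NaHCO3. For Tmem206 they were Bcr (r = 0.988), Fah (r = 0.985) and Kif5c (r = 0.984), and Kif5c, a kinesin, was at 17.8 TPM in controls 2 and 3, 23.6 TPM with lactic acid and 9.15 TPM in low NaHCO3.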

How the data were processed

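The deposited table holds TPM values, which the authors computed for 21959 Ensembl genes in 12 libraries. The submitters' processing notes name fastp 0.22.0, HISAT2 2.1.0 and the build GRCm39. The sources used here name neither the gene annotation nor the read counter and its strand setting. TPM has the same sum in every library and holds no counts, so depth is unknown and no counting interval could be given. Replicate descriptions that read CO3 or CO4 were taken as copying errors.

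Symbols were matched by Ensembl ID to a GRCm38 gene table (21851 of 21959), and promoters by symbol to RefSeq (6 of 6). None of the 50-base stretches of the members' transcripts occurred in the same orientation in transcripts of other genes (0%). Matches to the opposite strand were not searched, and Gpr65 overlaps Gm47566 on the opposite strand in the GRCm38 annotation. Genes with at least 1 TPM in every library of a group (11996, or 12023 without control 1) were fitted as log2(TPM + 1) by group with limma 3.58.1 in R 4.3.3 (trended eBayes). The 6 contrasts were tested two-sided, and p-values were adjusted over all genes of a contrast by Benjamini-Hochberg at 0.05. The test was checked on simulated data. Exact permutation tests went through every assignment of libraries to groups, in Python 3.11.15 with NumPy 2.4.6.

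From each pathway list, up to 4 genes past the threshold with the largest change against control are named, and Kcnk2, Stom, Rapgef3, Nr4a2, Rgs2, Grk3, Rock2, Pde8a and Prkar2a were chosen after their values were seen, as were the high or low examples from control 1. The 3 genes most like each tested member are named by Pearson correlation. The members, lists and the omission of control 1 were chosen with earlier results of these data known. Alternatives were a pseudocount of 0.1, no filter or 0.5 TPM, and other scalings. Further ones were a fit of only the groups compared, a replicate block and the omission of single libraries. All of these but the 0.5 TPM filter and the fit of only the groups compared were also run without control 1. A gene of the acid sensor list is not reported here.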

Additional observations from a re-analysis of the deposited data

How the results depend on the processing

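The calls of Asic1 and Asic3 in low NaHCO3 held in all 36 fits at a pseudocount of 1, with log2 changes of -2.39 to -0.93 and 1.27 to 2.01. For 15% CO2 against control 0 of the 6 genes passed with all libraries and 1 without control 1, also with a pseudocount of 0.1, with median-of-ratios scaling, or without lactic acid 3 or low NaHCO3 3. For lactic acid against control, 0 became 1 with median-of-ratios scaling and 2 with quantile normalization, both without control 1. Quantile normalization of all libraries left 1 of 3 for 15% CO2 and 1 of 2 for lactic acid against low NaHCO3. Asic1 under 15% CO2, not called in any fit, changed sign whenever control 1 was left out except under quantile normalization and without 15% CO2 2: its log2 change was 0.031 without control 1 (and without a filter or without any 1 lactic acid or low NaHCO3 library), 0.034 with a pseudocount of 0.1, 2.47e-05 with median-of-ratios scaling, 0.037 with the replicate block, and 0.0077 to 0.097 when a further control or 15% CO2 library was left out (over all fits that leave out libraries, -1.02 to 0.097). Tmem206 in low NaHCO3 turned to 0.084 with quantile normalization. Asic1 under 15% CO2 against low NaHCO3 passed in 30 of 36 fits (adjusted p up to 0.152), losing the call with all other libraries kept but 15% CO2 1, 15% CO2 2, low NaHCO3 1 or low NaHCO3 3 left out, without a filter, and with quantile normalization. The causes were not tested. Deviations of same-numbered libraries correlated at r from -0.149 to 0.490, over 0.1 in 3 of 18 pairs. For differently numbered libraries r was over 0.1 in 5 of 36 pairs. Without control 1 these counts were 4 of 15 and 2 of 30. The highest r, 0.490, was between 15% CO2 3 and lactic acid 3. These values do not settle whether numbers pair libraries, and the main fit did not pair them. With the replicate block the counts passing were 0, 0 and 2 against control in 15% CO2, lactic acid and low NaHCO3, as without it. Without control 1 the block ended the call of Asic3 under 15% CO2.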
